A study of Mus musculus with 14 samples.

Results

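Aminoacyl-tRNA synthetases attach each amino acid to its tRNA, and the genes for them were taken here by symbol from the count table: protein-coding genes named by a 1-letter amino acid code followed by ars, with Eprs, Farsa, Farsb and the scaffold genes Aimp1 and Aimp2. The rule found 39 genes among 39017 gene identifiers, of which 37693 had a name in the annotation. They were 20 cytosolic synthetases, 17 mitochondrial synthetases, whose symbols end in 2, and 2 scaffold genes. Gars and Kars each encode both the cytosolic and the mitochondrial form of the enzyme and were counted as cytosolic. Aimp2 ends in 2 by name but is a scaffold of the cytosolic complex. All 39 members passed the filter on low counts, with 269 to 458187 counts per library.

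RNA was measured in the hippocampus of male C57BL/6 mice that carried Cre-dependent EGFP-L10a and PV-Cre, so that the tagged ribosomal protein L10a was made in cells with a history of the parvalbumin promoter. Translating ribosome affinity purification (TRAP) pulled down tagged polysomes, and each TRAP sample came from both hippocampi of 1 mouse. The groups were 4 non-defeated mice, which were not attacked, and, after chronic social defeat stress (CSDS), 4 resilient and 3 susceptible mice, separated by a social interaction ratio above or below 1. A further 3 input samples held total RNA of non-defeated mice before TRAP. Every group, input included, came from mice with both transgenes. The labels give no age.

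The 14 libraries held 64110214 to 94726962 counts on genes. The 6 markers of PV interneurons that were examined were higher in non-defeated TRAP than in input (log2 fold changes up to 5.85, for Pvalb), whereas 4 of 4 excitatory neuron, 4 of 5 astrocyte, 5 of 5 oligodendrocyte and 5 of 5 microglia markers were lower. Of 5 endothelial and blood markers, 2 were lower and 1 was higher in TRAP, the endothelial tight junction gene Cldn5 (a mean of 2.95 CPM in TRAP and 1.26 CPM in input). None of these marker genes was at 0 in any library. Summed markers of other cells, divided by Pvalb, gave ratios of 149 to 223 in input, 0.753 to 1.08 in non-defeated, 0.673 to 1.76 in resilient and 1.03 to 1.81 in susceptible TRAP.

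Synthetases fall into 2 structural classes, I and II, that load the amino acid onto different hydroxyl groups of the terminal adenosine of the tRNA. In mammals, several cytosolic enzymes are held with the scaffold proteins AIMP1, AIMP2 and AIMP3 in a multisynthetase complex, while the others act alone. Mitochondria translate their own messages with a separate set of nuclear-encoded enzymes. When charging fails, uncharged tRNA activates the kinase GCN2 (Eif2ak4), and the transcription factor ATF4 then raises many cytosolic synthetase genes through short C/EBP-ATF response elements (CAREs). Inherited defects of synthetases are known causes of neuropathies and of leukoencephalopathies.

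Promoter sequences from RefSeq (GRCm38.p6, 250 bases before to 50 after the start) were matched for 29 members, and Hars, Hars2, Nars and Wars were among those without an entry. The CARE letters TGATGNAA, read on both strands, occurred in 5 of 13 cytosolic promoters (38.5%), those of Aars, Gars, Iars, Tars and Yars, in 0 of 14 mitochondrial promoters and in 0 of 2 scaffold promoters. Of all protein-coding promoters in the same window, 4.13% held them. The letters CGCANGCG, the core that nuclear respiratory factor 1 (NRF1) recognizes, occurred in 6 of 13 cytosolic and in 4 of 14 mitochondrial promoters (46.2% and 28.6%), against 12.5% of protein-coding promoters. The 120 bases before the start are shown for Gars, Tars and Aars, whose CARE letters, in capitals, lie before the start site. The same stretch is shown for Vars2, one of the members called between susceptible and resilient mice, with its NRF1 letters in capitals. The 3 NRF1 matches of Vars2 include a pair that overlap. Each sequence is written 5′ to 3′ on the strand of its gene.
Gars (chr6:55037881-55038000, plus strand): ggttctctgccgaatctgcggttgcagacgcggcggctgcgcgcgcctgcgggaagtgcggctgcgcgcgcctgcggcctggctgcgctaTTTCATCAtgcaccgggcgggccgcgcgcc
Tars (chr15:11399659-11399778, minus strand): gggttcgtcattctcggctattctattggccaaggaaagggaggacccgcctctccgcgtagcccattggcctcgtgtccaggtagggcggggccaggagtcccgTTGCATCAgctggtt
Aars (chr8:111033722-111033841, plus strand): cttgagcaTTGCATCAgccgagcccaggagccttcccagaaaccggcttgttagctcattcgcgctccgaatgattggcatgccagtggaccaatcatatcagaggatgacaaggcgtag
Vars2 (chr17:35667593-35667712, minus strand): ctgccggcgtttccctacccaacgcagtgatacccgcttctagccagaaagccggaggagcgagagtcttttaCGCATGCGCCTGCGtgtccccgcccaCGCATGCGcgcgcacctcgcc
The letters are read on the reverse strand in all 3 CARE promoters shown. They start at position -30 from the start site in Gars and at -15 in Tars, and Aars holds a further match just after the start. In Iars and Yars the letters start after the start site, at positions 7 and 3. A match describes the sequence and is not evidence of binding.

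Cytosolic synthetase messages were more abundant than their mitochondrial counterparts. Levels of different genes were compared as RPKM, counts scaled to library size and divided by the kilobases of annotated exon, where the length is the union of all annotated exons of the gene. In non-defeated TRAP, the median level was 16.5 RPKM over the 20 cytosolic and 5.71 RPKM over the 17 mitochondrial members, and in input the medians were 16.4 and 4.73 RPKM. Nars (asparagine) and Gars (glycine) were the most abundant cytosolic messages in TRAP, with 107 and 85.9 RPKM, and in input their levels were 55.4 and 58.3 RPKM. At the low end of the cytosolic class, Qars (glutamine) had 2.91 RPKM in TRAP, and Eprs, which joins the glutamate and proline enzymes in a single chain, had 2.68 RPKM in input. The exon union of Eprs spans 18102 bases, the longest among the members, which lowers its RPKM. Aimp2 stood at 32.5 RPKM and Aimp1 at 6.64 RPKM in non-defeated TRAP.

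For 17 amino acids, a cytosolic and a mitochondrial gene could be set side by side, with Eprs used for both glutamate and proline. The cytosolic member was higher in all 14 libraries in 15 of these pairs, and the median ratio was 2.98 in non-defeated TRAP and 2.83 in input. Wars against Wars2 (tryptophan) and Nars against Nars2 had the widest ratios in TRAP, at 56.8 and 47.8, followed by Mars against Mars2 (methionine) at 18. The exon union spans 11294 bases in Mars2 and 3423 in Mars, which widens this ratio. Without division by length, the means in non-defeated TRAP were 50.3 CPM for Mars and 9.23 CPM for Mars2. In input, the ratio of Nars to Nars2 was 22.6. Tars against Tars2 (threonine) and Farsa against Fars2 (phenylalanine) were nearly level, with ratios of 1.29 and 1.47 in TRAP. Eprs was higher than Pars2 in 11 of 14 libraries, with a ratio of 0.8 in input and 1.37 in TRAP. Lars and Lars2 (leucine) were the exception, since the mitochondrial gene was higher in all 14 libraries.

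**Figure D1:**
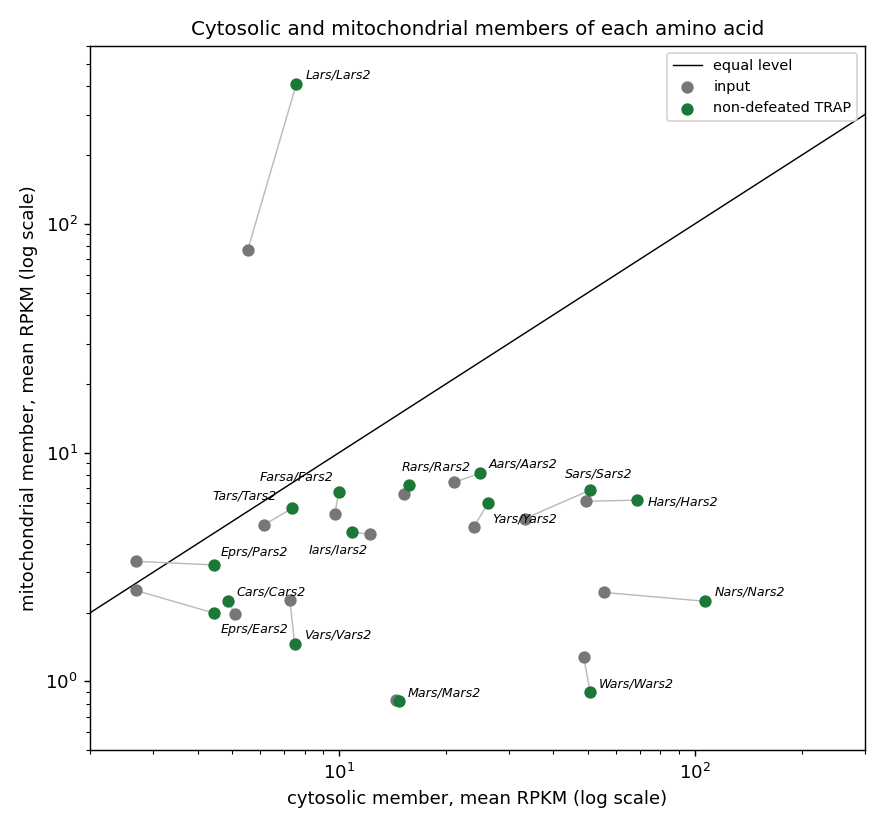
Mean level of the mitochondrial gene (vertical axis, RPKM, log scale) against that of the cytosolic gene (horizontal axis, RPKM, log scale) for 16 pairs, in input (gray, n = 3) and non-defeated TRAP (green, n = 4), with a thin line joining both points of a pair. All pairs drawn but Lars/Lars2 and, in input, Eprs/Pars2 lie below the line of equal level.

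Lars2 stood apart from every other mitochondrial member. It had 77.3 RPKM in input, 408 in non-defeated, 306 in resilient and 487 in susceptible TRAP, whereas the other mitochondrial members in non-defeated TRAP lay between 0.817 RPKM (Mars2) and 8.12 RPKM (Aars2). Its counts moved with those of Gm15564, which the annotation lists as an antisense gene on another chromosome: the number of Lars2 counts per Gm15564 count was 2.59 to 2.80 in all 14 libraries, across groups in which the level of Lars2 varied from 813 to 6300 CPM (counts scaled to the normalized library size). Lars2 counts per count of Gm42418, a gene model within the ribosomal RNA locus, ranged more widely, from 1.56 to 3.87. A transcript of Gm15564 shares 22 stretches of 31 bases with Lars2-201, in a span of 52 bases (3278 to 3329 of the 3894-base transcript) that lies after the coding part, which ends at base 2908. No stretch of 31 bases was shared with Gm42418. Reads that lie wholly within the shared span cannot be assigned to one gene from their sequence alone. The read length that the paper gives is longer than this span, so full-length reads also cover bases outside it. Whether reads of the span or ribosomal RNA contributed to the Lars2 counts was not tested. Median log2 fold changes of the mitochondrial class are therefore given with and without Lars2, whereas those of its class I enzymes include Lars2.

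**Figure D2:**
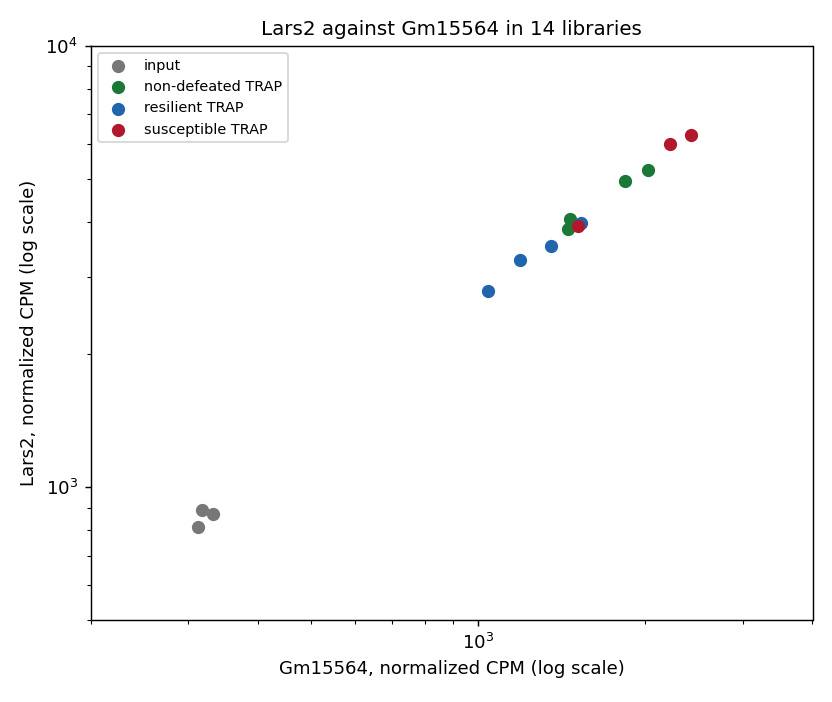
Normalized CPM of Lars2 (vertical axis, log scale) against that of Gm15564 (horizontal axis, log scale), with 1 point per library for input, non-defeated, resilient and susceptible TRAP. The 14 points lie close to a single line, with input at the lower left and 2 susceptible libraries at the upper right.

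The comparison of non-defeated TRAP with input asked which synthetase messages were over- or under-represented on the tagged ribosomes relative to the whole hippocampus. With edgeR's quasi-likelihood test and a threshold of 0.05 on the Benjamini-Hochberg adjusted p, 12 of 39 members were higher and 4 were lower in TRAP, beside 27.4% of all genes called higher and 27.6% called lower. The median log2 fold change was 0.13 over the members and -0.04 over all 21298 genes tested. Cytosolic members had 5 higher and 1 lower (median 0.12), and mitochondrial members 5 higher and 3 lower (median 0.04), or 4 higher and 3 lower without Lars2 (median also 0.04). Both scaffold genes were higher. The difference between the class medians was 0.09, and it ran from 0.01 to 0.10 over the other settings and with each library left out. In bulk samples such as these, more cells of a type and more RNA per cell cannot be told apart.

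Among the 12 cytosolic enzymes that act outside the multisynthetase complex, 4 rose and 0 fell (median log2 fold change 0.26). Of all genes tested, 27.4% were called higher and 27.6% lower. Nars was at 440, 461, 482 and 486 CPM in the non-defeated TRAP libraries and at 232, 244 and 248 CPM in input. The groups did not overlap, and the change was 1.94-fold (log2 fold change 0.95, standard error 0.07, adjusted p = 1.05e-07). Sars (serine) was at 216, 248, 274 and 309 CPM in TRAP and at 166, 167 and 181 CPM in input. Its lowest TRAP library was above every input library, and it rose 1.53-fold (log2 fold change 0.61, standard error 0.11, adjusted p = 0.000264). Gars, mutated in an inherited motor neuropathy, was at 218, 242, 303 and 309 CPM in TRAP against 179, 184 and 184 CPM in input (1.47-fold, adjusted p = 0.00129). Hars (histidine) rose 1.38-fold (log2 fold change 0.47, standard error 0.10, adjusted p = 0.000815).

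Of the 8 cytosolic enzymes of the multisynthetase complex, 1 rose, 1 fell and 6 were not called (median 0.03). The shares of all genes were again 27.4% higher and 27.6% lower. Eprs rose 1.65-fold (log2 fold change 0.73, standard error 0.17, adjusted p = 0.00194), with 59.2, 76.5, 87.3 and 98.4 CPM in TRAP and 47.2, 49.1 and 49.4 CPM in input. The TRAP libraries were spread widely but did not reach down to input. Qars was the member that fell, with 17.0 to 21 CPM in TRAP and 21.4, 23.9 and 24.7 CPM in input (log2 fold change -0.29, standard error 0.10, adjusted p = 0.0275). The highest TRAP libraries lay just under the lowest input library, and an offset for gene length removed the difference (0.02, adjusted p = 0.861). Kars (lysine) was not called, at 80.3, 84.5, 85.7 and 88.1 CPM in TRAP and 76.2, 77.3 and 82.1 CPM in input (log2 fold change 0.11, standard error 0.08, adjusted p = 0.286).

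Both scaffold genes rose. Aimp1 (chromosome 3, 132660499 to 132684370, minus strand, GRCm38), whose protein binds several enzymes of the complex and can also be secreted, was at 34.6, 35.3, 38.2 and 40.6 CPM in TRAP and at 24.2, 24.9 and 25.6 CPM in input (log2 fold change 0.58, standard error 0.08, adjusted p = 2.45e-05). Aimp2, which links the sub-complexes, was at 51.7, 51.9, 55.0 and 56.5 CPM in TRAP and at 39.7, 40 and 41.4 CPM in input (log2 fold change 0.41, standard error 0.07, adjusted p = 0.000137). For both genes every TRAP library was above every input library. The third scaffold gene, Eef1e1 (AIMP3), which the symbol rule does not take, rose from a mean of 42.7 CPM to 136 CPM (log2 fold change 1.67, adjusted p = 2.85e-08).

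In the mitochondrial class, Lars2 rose 5.28-fold (log2 fold change 2.40, standard error 0.17, adjusted p = 5.76e-08), from 813, 869 and 889 CPM in input to 3840, 4060, 4950 and 5240 CPM in TRAP. Gm15564 differed by a similar ratio, with 312 to 332 CPM in input and 1450 to 2020 CPM in TRAP. The other rises in this class were smaller. Sars2 was at 18.2, 21, 24.1 and 27.8 CPM in TRAP against 16.1, 16.3 and 18.8 CPM in input (log2 fold change 0.42, standard error 0.13, adjusted p = 0.0156), and the groups overlapped. Yars2 (tyrosine) was at 17.1, 18.7, 19.8 and 20.4 CPM in TRAP against 14.1, 15.0 and 15.6 CPM in input (log2 fold change 0.35, standard error 0.13, adjusted p = 0.0309). Fars2 and Tars2 rose by 0.33 and 0.24 on the log2 scale (adjusted p = 0.0162 and 0.0292).

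The 3 members of the mitochondrial class that fell were Vars2 (valine), Wars2 and Ears2 (glutamate). Vars2 (chromosome 17, 35655634 to 35667592, minus strand) was at 6.64, 7.73, 8.26 and 9.35 CPM in TRAP and at 10.8, 12.7 and 13.8 CPM in input (log2 fold change -0.64, standard error 0.15, adjusted p = 0.00238). Wars2 was at 3.74, 5.61, 5.93 and 6.02 CPM in TRAP and at 6.95, 7.45 and 8.5 CPM in input (log2 fold change -0.52, standard error 0.20, adjusted p = 0.0369). Ears2, which also makes the glutamyl-tRNA that mitochondria convert to glutaminyl-tRNA, was at 8.69, 10.2, 11 and 11.1 CPM in TRAP and at 12.6, 13 and 13.1 CPM in input (log2 fold change -0.33, standard error 0.12, adjusted p = 0.0316). In all 3 genes the groups did not overlap. With offsets for GC content or gene length, the split of 12 higher and 4 lower members became 18 and 1, or 23 and 1. Of all genes, 55.0% and 53.9% were called in either direction in these fits. Vars2 was the member still lower in both. Without input replicate 12 or without input replicate 13, 9 members were higher and 1 was lower, beside 47.0% and 46.3% of all genes called. Without non-defeated replicate 9 the median over the members was 0.01.

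**Figure D3:**
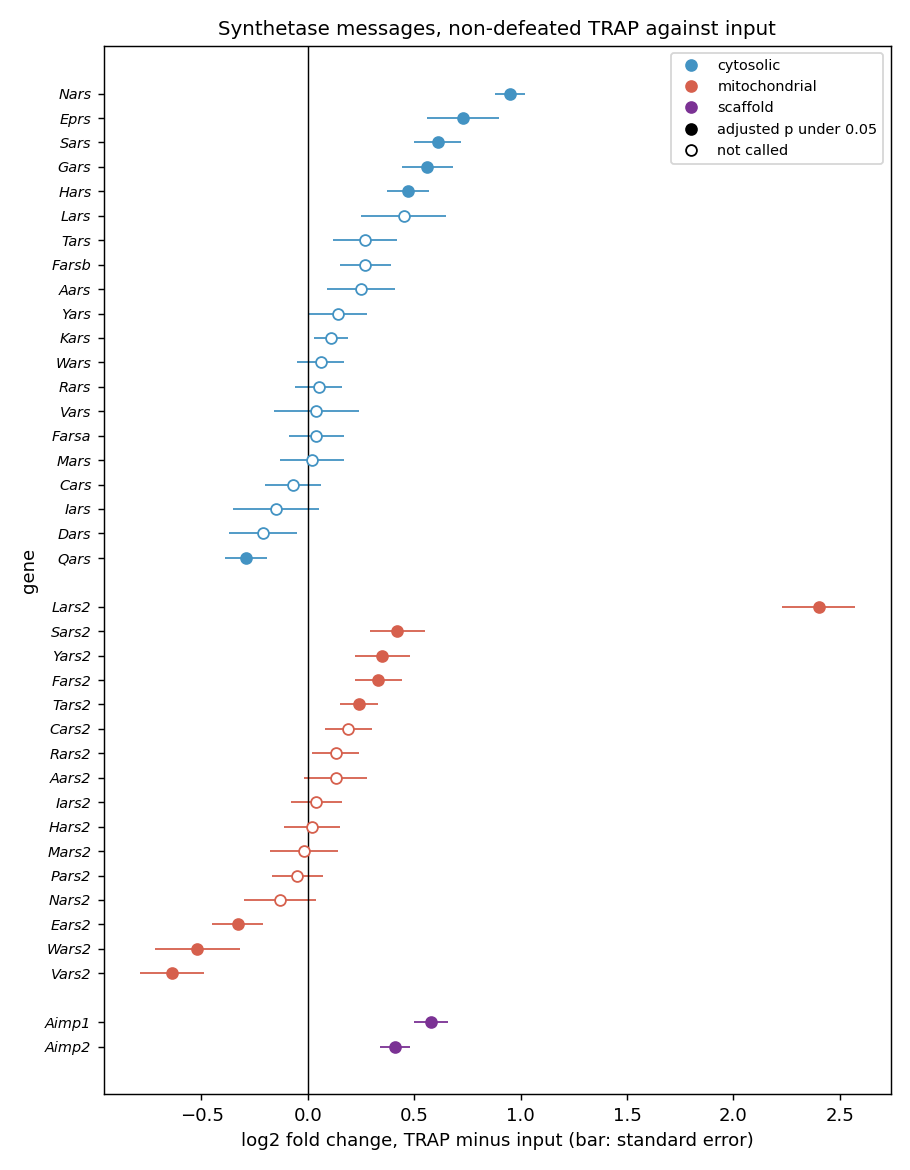
Log2 fold change of 38 members, non-defeated TRAP (n = 4) minus input (n = 3), with the standard error as a bar, grouped into cytosolic, mitochondrial and scaffold members. Filled points passed an adjusted p of 0.05, and Lars2 at 2.40 lies far to the right of the next member, Nars at 0.95.

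Between resilient and non-defeated mice, 0 of 39 members passed the adjusted threshold with edgeR, as did 0% of all genes tested, and DESeq2 called 0 members. At an unadjusted p under 0.05, 2 members were higher and 1 was lower, beside 2.22% and 2.16% of all genes. The fold changes were small and mostly above zero: 31 of 39 members had a positive log2 fold change, with a median of 0.08 (cytosolic 0.09, mitochondrial 0.10 both with and without Lars2) where the median of all genes was 0. Leaving out single libraries, the median ran from 0.03 (without non-defeated replicate 1) to 0.15 (without non-defeated replicate 9), and 25 to 34 members were above zero. Without non-defeated replicate 9 the number higher at an unadjusted p under 0.05 was 9, and the share of all genes was not computed for that fit. The direction turned with the level of Gm42418 as a covariate in the fit of the 11 TRAP libraries, chosen after seeing the data: 9 members were above and 30 below zero, with a median of -0.06. With the ratio of markers of other cells to Pvalb as the covariate, 24 were above zero. Gm42418 was at 1300 to 2640 CPM in non-defeated and at 845 to 1500 CPM in resilient mice, and its part in the difference was not tested.

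Vars2 had the smallest p of the members. It was at 9.78, 9.88, 12.7 and 13.8 CPM in resilient mice, above every non-defeated library (6.64 to 9.35 CPM) and overlapping with input (log2 fold change 0.53, standard error 0.14, unadjusted p = 0.00206, adjusted p = 1). The exact 2-sided permutation test of this difference gave p = 0.0286, the smallest that 4 against 4 libraries allow. Lars2 was at 2790, 3270, 3530 and 3970 CPM in resilient mice (log2 fold change -0.42, standard error 0.15, unadjusted p = 0.0127, exact p = 0.0571), and the highest of these libraries lay above the lowest non-defeated one. With the Gm42418 covariate, the log2 fold changes of Vars2 and Lars2 were 0.35 and -0.08, and that of Hars2 was 0.01. Hars2 was at 29.3, 30.9, 31.5 and 34.5 CPM in resilient and at 22.9, 26.2, 27.4 and 29.8 CPM in non-defeated mice, with an overlap at the edge (log2 fold change 0.25, standard error 0.12, unadjusted p = 0.0485, exact p = 0.0571).

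Between susceptible and non-defeated mice, 0 members passed the adjusted threshold with edgeR, beside 0.0376% of all genes, and DESeq2 called 0 members. At an unadjusted p under 0.05, 1 member was higher (6.61% of all genes) and 4 were lower (6.7% of all genes). The 4 became 0 without susceptible replicate 2, 1 without non-defeated replicate 9 and 7 without non-defeated replicate 6. They became 10 without susceptible replicate 10 and 11 without non-defeated replicate 1. The shares of all genes at this threshold were not computed for these fits, so the counts cannot be set beside them. The median log2 fold change was -0.12 over the members and 0.01 over all genes, and 27 of 39 members were below zero. It was -0.11 over cytosolic and -0.15 over mitochondrial members, the latter both with and without Lars2. The median over all members was -0.04 without non-defeated replicate 9 and -0.05 without susceptible replicate 2. The 8 mitochondrial enzymes of class II were all below zero, with a median of -0.24, whereas the 9 of class I had a median of -0.02.

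Aimp1 was the higher member. It was at 46.4, 46.6 and 46.7 CPM in the susceptible libraries, above every non-defeated library (log2 fold change 0.32, standard error 0.08, unadjusted p = 0.000827, adjusted p = 0.145, exact p = 0.0286, the smallest that 4 against 3 libraries allow). Tars2 was at 30.6, 34.3 and 35.4 CPM in susceptible and at 35.8, 37.2, 40.6 and 44.7 CPM in non-defeated mice, so that the groups met without overlapping (log2 fold change -0.24, standard error 0.09, unadjusted p = 0.0140, adjusted p = 0.272, exact p = 0.0571). Hars2 was at 16.7, 22.0 and 24.7 CPM in susceptible mice and overlapped with non-defeated mice (log2 fold change -0.33, standard error 0.13, unadjusted p = 0.0209, adjusted p = 0.304, exact p = 0.0857). Iars (isoleucine) and Wars were the other 2 lower members, with log2 fold changes of -0.51 and -0.24 (unadjusted p = 0.0253 and 0.0368).

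The comparison of susceptible with resilient mice set the 2 outcomes of the same stress side by side. Of the 39 members, 4 passed the adjusted threshold, beside 1.89% of all genes: Aimp1 and Lars2 were higher and Hars2 and Vars2 lower in susceptible mice. At an unadjusted p under 0.05, 2 members were higher and 13 lower, beside 10.8% and 10.1% of all genes. The 13 became 5 without susceptible replicate 2 and 1 with the Gm42418 covariate, fits for which the shares of all genes at this threshold were not computed. In all, 32 of 39 members were below zero, and the median log2 fold change was -0.18, where the median of all genes was 0. The resilient and susceptible libraries here are those of the comparisons with non-defeated mice, so the 3 comparisons do not give independent counts.

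Both classes lay below zero. The median was -0.22 over cytosolic members (16 of 20 below zero, 0 called, 7 lower at an unadjusted p under 0.05) and -0.18 over mitochondrial members (15 of 17 below zero, 1 higher and 2 lower called). The difference between the class medians was -0.04, and it ran from -0.12 to 0.07 over the other settings and with each library left out. Without Lars2, the mitochondrial median was -0.19, and 15 of 16 members were below zero. Summed over these 16 members, the level was 365 to 388 CPM in resilient and 285 to 327 CPM in susceptible mice, which did not overlap. It was 313 to 392 CPM in non-defeated TRAP and 326 to 331 CPM in input. With Lars2 included, the direction was the opposite: 3160 to 4350 CPM in resilient and 4230 to 6580 CPM in susceptible mice, which overlapped. Summed over the cytosolic members, the level was 2290, 2660, 2690 and 2830 CPM in resilient and 2110, 2250 and 2510 CPM in susceptible mice, and these groups overlapped. Non-defeated libraries covered this range, from 2080 CPM in replicate 1 to 2830 CPM in replicate 9.

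Within the cytosolic class, members outside the multisynthetase complex had a median of -0.29, with 11 of 12 below zero, and the 8 enzymes inside it had a median of -0.09, with 5 below zero. Among the 8 mitochondrial enzymes of class II the median was -0.36, with 8 below zero, and among the 9 of class I it was -0.10, with 7 below zero. The 5 cytosolic members whose promoters hold the CARE letters had log2 fold changes from -0.45 (Aars) to -0.30 (Tars), with a median of -0.37. The other 8 cytosolic members with a promoter entry had a median of -0.17, with 7 below zero. They ran from -0.42 to 0.11, so that the 2 ranges overlapped. None of the 5 passed the adjusted threshold. Gars was at 252, 287, 303 and 308 CPM in resilient and at 198, 236 and 242 CPM in susceptible mice, and these did not overlap (log2 fold change -0.35, standard error 0.12, unadjusted p = 0.0107, adjusted p = 0.121). Aars, which charges alanine, was at 203, 265, 272 and 292 CPM in resilient and at 168, 176 and 223 CPM in susceptible mice, which overlapped (log2 fold change -0.45, standard error 0.16, adjusted p = 0.146). Some reads of Aars may belong to Exosc6, which shares 1326 exonic bases on the same strand.

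**Figure D4:**
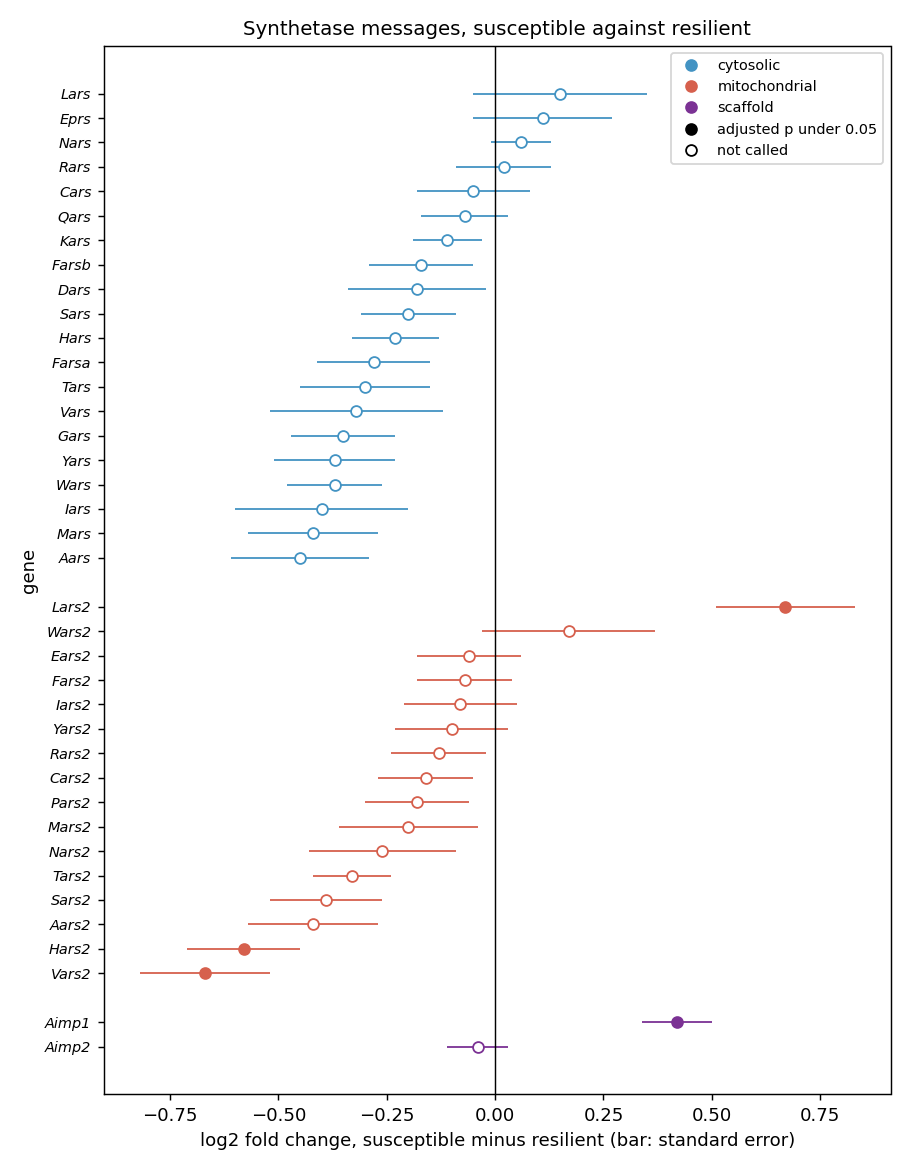
Log2 fold change of 38 members, susceptible (n = 3) minus resilient (n = 4) TRAP, with the standard error as a bar, grouped by class. Of the points, 31 lie left of zero, and the 4 filled points (Aimp1 0.42, Lars2 0.67, Hars2 -0.58 and Vars2 -0.67) passed an adjusted p of 0.05.

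Aimp1 had the smallest p of the members. Its resilient libraries were at 33.2, 33.8, 36.2 and 36.2 CPM and its susceptible libraries at 46.4, 46.6 and 46.7 CPM, a gap of several times the spread within either group (1.34-fold, log2 fold change 0.42, standard error 0.08, adjusted p = 0.0299, exact p = 0.0286). It shares 163 exonic bases with Tbck on the opposite strand. The partner scaffold Aimp2 was at 53.2, 54.7 and 56.2 CPM in susceptible and at 54.7, 54.8, 57.5 and 58.5 CPM in resilient mice, which overlapped (adjusted p = 0.762).

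Hars2, the mitochondrial histidine enzyme (chromosome 18, 36783008 to 36792562, plus strand), was lower in every susceptible library (16.7, 22.0 and 24.7 CPM) than in every resilient library (29.3 to 34.5 CPM). The change was 0.67-fold (log2 fold change -0.58, standard error 0.13, adjusted p = 0.0413, exact p = 0.0286). Hars2 and its neighbor Hars run in opposite directions from 1 start region and share 195 exonic bases, and the sequencing libraries do not mark the strand, so reads in this stretch cannot be told apart. Hars was at 168, 176, 186 and 199 CPM in resilient and at 138, 162 and 164 CPM in susceptible mice, also without overlap (log2 fold change -0.23, standard error 0.10, adjusted p = 0.180).

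Vars2 was at 6.93, 7.28 and 7.48 CPM in susceptible and at 9.78 to 13.8 CPM in resilient mice. The groups did not overlap, and the change was 0.628-fold (log2 fold change -0.67, standard error 0.15, adjusted p = 0.0450, exact p = 0.0286). It shares 465 exonic bases with Gm20483 on the opposite strand. The non-defeated libraries (6.64 to 9.35 CPM) covered the susceptible values.

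Lars2 (chromosome 9, 123366927 to 123462666, plus strand) was at 3900, 6010 and 6300 CPM in susceptible and at 2790 to 3970 CPM in resilient mice. The lowest susceptible library, replicate 4, lay inside the resilient range (1.59-fold, log2 fold change 0.67, standard error 0.16, adjusted p = 0.0468, exact p = 0.0571). Gm15564 was at 1510, 2210 and 2420 CPM in susceptible and at 1040, 1190, 1350 and 1530 CPM in resilient mice, with replicate 4 again the lowest (adjusted p = 0.0493). The members next in order of p were Tars2, at 41.6 to 42.3 CPM in resilient and 30.6 to 35.4 CPM in susceptible mice (log2 fold change -0.33, adjusted p = 0.0648), and Wars, at 173 to 202 and 134 to 161 CPM (log2 fold change -0.37, adjusted p = 0.0801). Neither passed.

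**Figure D5:**
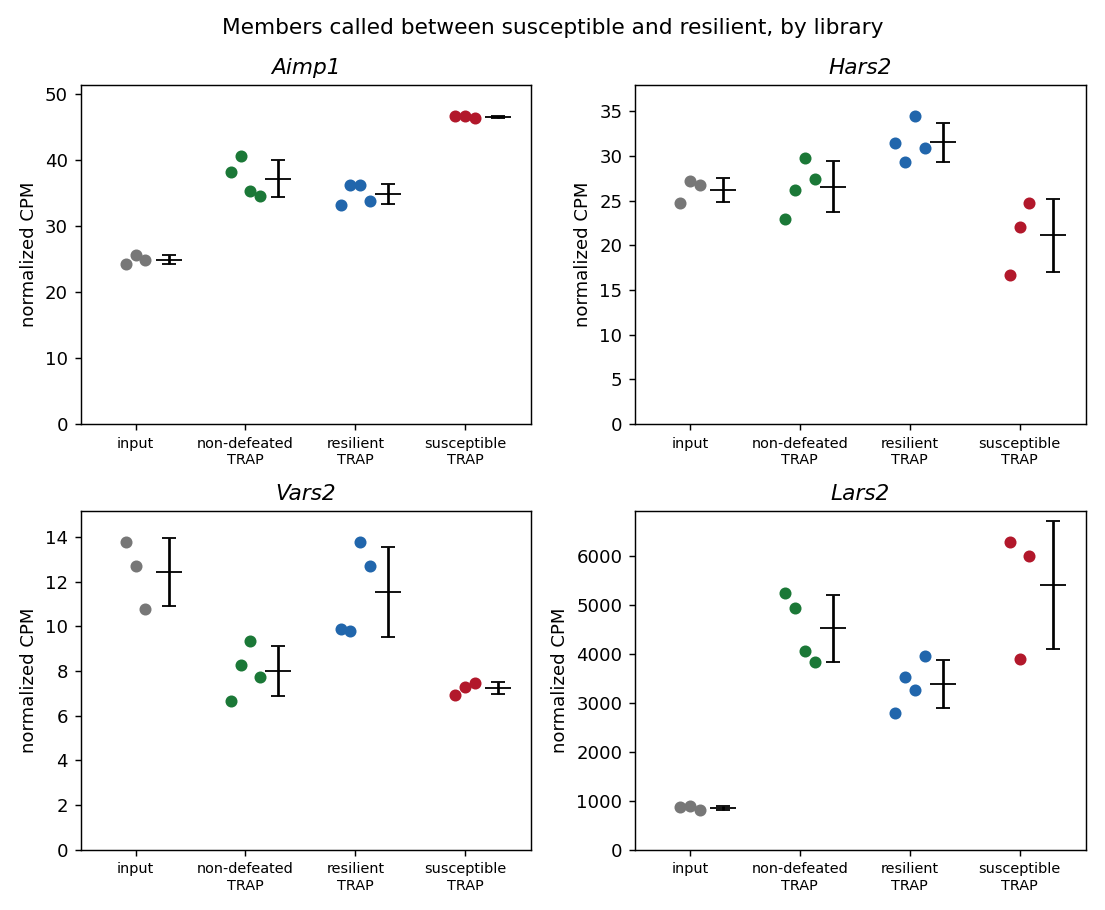
Normalized CPM per library (points) of Aimp1, Hars2, Vars2 and Lars2 in input, non-defeated, resilient and susceptible TRAP, with the group mean and SD beside them and each vertical axis starting at 0. The susceptible libraries of Aimp1 (46.4 to 46.7 CPM) lie above all others, and those of Vars2 (6.93 to 7.48 CPM) lie below all resilient and input libraries.

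The 4 calls depended on which libraries and model were used. They were 0 without resilient replicate 3, 7 or 8 (0.122%, 0.0565% and 0.0282% of all genes called) or without susceptible replicate 2 (0.0323%). They were 1 without susceptible replicate 4 (0.336%), 2 without resilient replicate 5 (0.922%) and 3 without susceptible replicate 10 (4.88%). When the 2 groups or the 11 TRAP libraries were fitted alone, 0 were called (0% and 0.00482% of all genes). In the main fit 1.89% of all genes were called. The direction was less affected: with each of these 7 libraries left out in turn, 30 to 34 of 39 members were below zero and the median was -0.25 to -0.15. The level of Gm42418 was 845 to 1500 CPM in resilient and 1580 to 2920 CPM in susceptible mice. With it as a covariate in the fit of the 11 TRAP libraries, chosen after seeing the data, 0 members and 0% of all genes were called. There 22 of 39 members were below zero and the median was -0.02, against 32 below zero and -0.18 in that fit without it. The shift of the members and the level of Gm42418 moved together, and the part of one in the other was not tested.

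Globin genes, the blood markers of the list, also differed. Of the 5 endothelial and blood markers, 2 were higher in susceptible than in resilient mice (adjusted p under 0.05), Hba-a1 and Hbb-bs. The other 3, all endothelial, were not called. Log2 fold changes over the 5 ran from -0.28 to 2.04, with a median of 0.17, and 1 was below zero. Hba-a1 was at 277 to 344 CPM in susceptible and 42.7 to 185 CPM in resilient mice. Hbb-bs was at 185 to 299 CPM in susceptible and 23.6 to 122 CPM in resilient mice. The list, globin genes included, summed to 73.9 to 311 CPM in resilient and 478 to 654 CPM in susceptible mice. None of the markers of astrocytes, oligodendrocytes, microglia or excitatory neurons was called. Hba-a1 was also higher in susceptible than in non-defeated mice (adjusted p = 0.0475). With the ratio of markers of other cells to Pvalb as a covariate in the fit of the 11 TRAP libraries, 7 members were called, beside 7.47% of all genes (0.00482% in that fit without the covariate), Aimp1 (adjusted p = 0.0287), Hars2 (0.0328) and Vars2 (0.0380) among them and Lars2 (0.0549) not. The part of blood or other cells in the difference was not tested.

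Genes that work beside the synthetases were examined as 4 lists. Of 13 other aminoacylation factors, 6 were higher and 2 lower in non-defeated TRAP than in input, beside 27.4% and 27.6% of all genes. Eef1e1, given above, and Qrsl1, a subunit of the amidotransferase that finishes mitochondrial glutaminyl-tRNA (log2 fold change 0.80, adjusted p = 1.97e-05), led the rises, and Trnt1, which adds the CCA end of tRNAs (-0.23, adjusted p = 0.0333), and Sepsecs, which makes selenocysteinyl-tRNA (-0.39, adjusted p = 0.0446), were the ones that fell. Of 8 factors that deliver charged tRNA to the ribosome, 6 were higher and 2 lower. The mitochondrial elongation factors Tsfm (log2 fold change 1.25, adjusted p = 1.59e-07) and Tufm (0.89, adjusted p = 7.22e-07) rose, while Eef1a1, the cytosolic elongation factor of most tissues, fell (-0.90, adjusted p = 7.42e-06), as did Eefsec (-0.32, adjusted p = 0.0477). In both lists 0 genes passed the adjusted threshold in any stress comparison with edgeR. At an unadjusted p under 0.05, susceptible against resilient mice gave 2 higher and 0 lower of the 13 factors and 1 higher and 1 lower of the 8, beside 10.8% and 10.1% of all genes.

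Of 25 genes of the ATF4 and amino acid response, 4 were higher and 7 lower in TRAP than in input, beside 27.4% and 27.6% of all genes. Chac1, a glutathione-degrading target of ATF4 (log2 fold change 1.43, adjusted p = 6.45e-08), and Mthfd2, of mitochondrial folate metabolism (0.59, adjusted p = 0.00141), rose, and Vldlr, a reelin and lipoprotein receptor (-0.77, adjusted p = 3.07e-05), and Ddit4, an inhibitor of mTOR signaling (-0.53, adjusted p = 0.000430), fell. Between susceptible and resilient mice, 2 of the 25 were called, both higher in susceptible mice, beside 1.89% of all genes. Atf5, a transcription factor related to ATF4, was at 3.87, 4.50 and 4.93 CPM in susceptible and at 2.16, 2.31, 2.58 and 2.74 CPM in resilient mice (log2 fold change 0.86, adjusted p = 0.0459). Vldlr was at 14.7, 15.0 and 15.8 CPM against 8.75, 10.1, 10.8 and 12.3 CPM (log2 fold change 0.53, adjusted p = 0.0377). At an unadjusted p under 0.05 the list had 5 higher and 2 lower members, beside 10.8% and 10.1% of all genes, and its median was 0.12. Atf4 itself was higher (log2 fold change 0.38, adjusted p = 0.205) and Asns, the asparagine synthetase gene that ATF4 is known to induce, was lower (-0.30, adjusted p = 0.218) without passing. In the comparisons with non-defeated mice, 0 of the 25 passed the adjusted threshold.

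Of 11 amino acid transporters, 2 were higher and 2 lower in TRAP than in input, beside 27.4% and 27.6% of all genes. The glutamine carrier Slc38a1 rose (log2 fold change 1.30, adjusted p = 4.41e-07) and so did the cationic amino acid carrier Slc7a1 (0.71, adjusted p = 0.00932), while the glycine transporter Slc6a9 (-0.99, adjusted p = 0.00150) and Slc7a3 (-1.02, adjusted p = 0.0317) fell. None was called in a stress comparison at the adjusted threshold. At an unadjusted p under 0.05, 1 was higher and 1 lower in susceptible against non-defeated mice (6.61% and 6.7% of all genes) and 0 higher and 1 lower against resilient mice (10.8% and 10.1%), the latter being Slc38a2 (log2 fold change -0.33, adjusted p = 0.133).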

How the data were processed

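TRAP RNA of hippocampal PV neurons (11 libraries) and input RNA (3 libraries) were analysed from the raw counts per gene that the authors deposited, whole numbers without normalization. The authors used fastp for trimming and STAR for alignment to mm10 (2.5.3a in the processing notes of the submitters, which also name HTSeq). The paper names a different version of STAR. Counting settings and annotation are not given in the sources used here. Genes were named, and exons and overlaps taken, from GENCODE release M21, and the unnamed identifiers held 0.824% of counts.

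The 14 libraries were fitted together in R 4.3.3 with edgeR 4.0.16 (TMM, default low-count filter, quasi-likelihood test, Benjamini-Hochberg adjustment over 21298 genes, threshold 0.05). Exact 2-sided permutation tests used log2 CPM with a prior count of 2. CPM are TMM-normalized, and RPKM are these divided by the union of annotated exons. The labels do not pair samples across groups. The members and lists were chosen with earlier results of these data known.

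Values per library are given for up to 3 called members with the largest rise and fall per class in TRAP against input, those called or with the 3 smallest p-values in each stress comparison, and Gars, Kars, Eprs, Aimp1 and Aimp2. Of other lists, genes called in a stress comparison and the 2 with the smallest p per direction in TRAP against input are named. Aars, Wars, Hars, Atf4, Asns, Slc38a2, Gm15564 and Gm42418 were added after their values were seen. Alternatives were the likelihood ratio test, DESeq2 1.42.0, RLE size factors, other filters, GC and length offsets, fewer libraries and covariates. On simulated data with 2-fold changes in 200 genes, the test recovered 56% for susceptible against resilient, with 7.44% false calls, over 20625 genes. The values of 1 member, which enters the counts and medians, are not reported here or drawn.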

Additional observations from a re-analysis of the deposited data

Results flagged for a closer look

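Of the 78 groups of 4 libraries examined, non-defeated and resilient for each of the 39 members, 1 held a value far from the rest. Sars2, the mitochondrial serine enzyme, was at 24.4 CPM in resilient replicate 8, the lowest of its group, while the other resilient libraries lay between 26.2 and 26.5 CPM. The gap was 0.857 of the whole range of the group, above Dixon's critical value for 4 samples. Chance alone gives such a value in about 1 in 20 groups.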

How the results depend on the processing

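No paired analysis was possible because the groups compared share no replicate numbers. In TRAP against input, 14 to 24 members were called under the other settings, beside 39.0% to 61.4% of all genes. With each library left out, 10 to 15 members were called, beside 46.3% to 54.1% of all genes. The direction of Qars turned with an offset for gene length (0.02). Offsets for GC content and gene length moved the median log2 fold change of all genes from -0.04 to 0.07 and 0.10, and that of the members from 0.13 to 0.22 and 0.36. The counts of 0 in both comparisons with non-defeated mice stayed at 0 in every setting, leave-one-out included. In susceptible against resilient mice, the 4 called members became 1 without a filter on low counts and 1 with an offset for GC content (0.431% and 0.507% of all genes called). They became 0 with the 11 TRAP libraries only and 0 with the 2 groups only (0.00482% and 0%). They became 8 with DESeq2, 8 with the sample number as a covariate and 7 with the other-cell marker ratio as a covariate (6.3%, 5.34% and 7.47%). With the Gm42418 level as a covariate, added after seeing the data, 0 were called (0%). With each library left out, 0 to 3 were called (0.0282% to 4.88%). The cause of these differences was not tested. In every setting the difference between the class medians moved from its value in the main fit by less than the SD between libraries of a group. For the members described with values per library, 334 of 403 recomputed values kept their direction and side of the threshold. A further 66 no longer passed, 2 newly passed (Kars in TRAP against input) and 1 turned. Members that were not called and stayed so count among the 334. Between susceptible and resilient mice, Aimp1 and Hars2 kept their call in 8 of 12 other settings, Vars2 in 7 and Lars2 in 6. Of 7 fits with a library left out, Aimp1 and Vars2 kept it in 2, and Hars2 and Lars2 in 1. With 3 or 4 libraries per group, small changes of single members can be missed.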
